A study of Mus musculus with 30 samples.

Results

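The lungs of mice held in 10% oxygen for 6 d were compared with those held there for 2 d. Members were chosen by title: every array titled Hyp6d or Hyp2d, which gave 12 of the 30 arrays of the series, 6 at each time. Lung RNA was hybridised to Affymetrix MG-U74 version 2 arrays. They come as types A, B and C, each with its own probe sets, groups of short probes that together read 1 transcript. Each time had a sample 1a and a sample 1b, each run once on every type, so each type set 2 arrays against 2. The animals of both groups breathed 10% oxygen in a chamber, a treatment given to induce pulmonary hypertension, and were killed after 2 or 6 days. Strain, sex and age stand in none of the labels used here. The groups at 10 h and 4 d in the same oxygen served only to estimate the spread and to place the levels. By their sample numbers, the 2 d and 6 d arrays were deposited together and those of 10 h and 4 d in other runs. Time and deposit run thus cannot be told apart wherever 2 d or 6 d is set beside 10 h or 4 d. A group titled Norm, whose description mentions a rejection, took no part in the main comparison.

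Low oxygen narrows the small arteries of the lung, and when it lasts the vessel walls thicken as smooth muscle, matrix and endothelium respond. The wall of the airspaces is lined by flat alveolar type 1 cells and by cuboidal type 2 cells, which make surfactant and divide to renew the lining. Soluble guanylate cyclase, an enzyme of 2 subunits, carries the relaxing signal of nitric oxide in smooth muscle, and endothelin acts the other way. Lung RNA mixes all these cells with blood, so fewer cells of a type and less RNA per cell cannot be told apart in these data.

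The values were deposited probe set intensities on a linear scale, and all levels below are either these intensities or their log2. Each type had a floor, 237.67 for A, 296.68 for B and 198.97 for C, to which lower values were raised. The trimmed mean of the 24 arrays of low oxygen lay between 800.2 and 800.4, and the Spearman correlation between both arrays of a time was 0.893 to 0.955 at 2 d and 0.904 to 0.964 at 6 d. Nothing in the labels states whether samples 1a and 1b are different mice. The p-values here therefore set a difference against the spread between such samples, pooled over the 4 times, and that spread may be technical. An exact permutation test of 2 arrays against 2 cannot go below a two-sided p of 0.333, so the tests were those of limma over all probe sets. The lung label was checked on its markers: at 2 d and 6 d the surfactant gene Sftpc read 10010 to 42810, the club cell gene Scgb1a1 21280 to 45060 and Ager of type 1 cells 17610 to 25450, while the endothelial marker Pecam1 was dim. Heart muscle markers were present at both times, with Myh6 at 1814 and 1441 at 2 d and 2011 and 1688 at 6 d.

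The control probe sets set the 2 d arrays apart before any gene is read. The arrays carry probe sets at both ends of the control transcripts, and their ratio falls near 1 when both ends are copied alike. The 3' to 5' ratio of Gapdh was 3.64 to 4.60 on the 6 arrays of 2 d, 1.40 to 1.68 on those of 6 d and 0.786 to 1.49 on those of 10 h and 4 d. For beta-actin it was 3.64 to 4.98 at 2 d and 0.474 to 1.66 at 6 d, without overlap, and 0.027 to 0.613 at the other times. On the A type the brightest probe set read 40213 and 45948 at 2 d against 32175 and 23940 at 6 d. Among the brightest 84 tested probe sets of A, 67 read lower at 6 d (median log2 difference -0.29), against 34 of 85 on B and 39 of 86 on C. The part of these differences in the results below was not tested. Where a gene named below has other tested probe sets, their log2 differences are given for most genes beside its own.

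**Figure D1:**
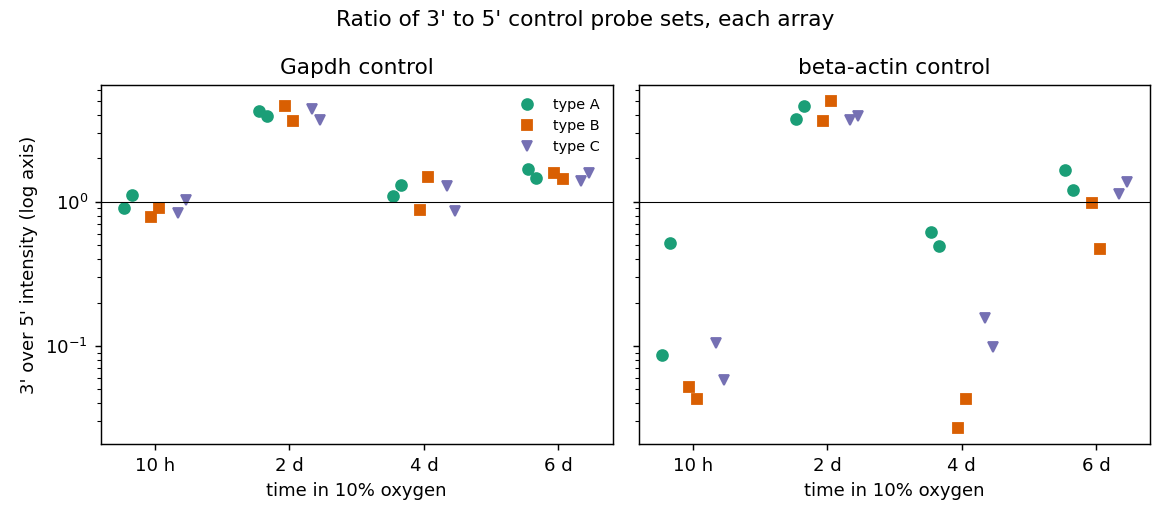
Ratio of the 3' to the 5' control probe set (log axis) against the time in 10% oxygen, for Gapdh (left) and beta-actin (right). Each point is 1 array and its shape and colour give the array type; all 2 d arrays lie between 3.64 and 4.98, above every array of the other times.

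Few transcripts passed the test. Of 25279 probe sets tested, 30 had an adjusted p under 0.05 (0.119%), 22 higher and 8 lower at 6 d, and they named 25 genes. Counted by 1 representative probe set for each of 12900 genes, 11 rose (0.0853%) and 1 fell (0.00775%). Before adjustment 3682 probe sets (14.6%) had p under 0.05, 1898 higher and 1784 lower. The number that passed moved with single samples: it was 0 without either 10 h sample or without either 6 d sample, 2 and 7 without 2 d 1a and 1b, and 8 and 22 without 4 d 1a and 1b. Unadjusted p was under 0.05 for 2229 to 4132 probe sets in those 8 fits. All of the 30 probe sets that were tested there kept their direction. They were chosen for small p on these same arrays, so a kept direction is no separate support.

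Among the representative probe sets the largest rises were those of Lyz1 and Etv5. Lyz1, a lysozyme, read 2489 and 1140 at 2 d and 33030 and 29450 at 6 d, a log2 rise of 4.21 ± 0.33 (SE, n = 2 each, adjusted p = 0.0122). Its probe set is of a kind whose probes are shared with near copies, and the probe set of its neighbour gene Lyz2 read 17430, 18000, 19880 and 16820, a difference of 0.04 ± 0.25, so which lysozyme rose is uncertain. Etv5, an ETS transcription factor known for maintaining type 2 cells, read 1442 and 1495 at 2 d and 4821 and 5795 at 6 d (1.85 ± 0.14, adjusted p = 0.0122). For Lyz1 the 6 d arrays also stood above those of 10 h (7950 and 6315) and 4 d (12860 and 10210). Etv5 was above its 2 d level at 10 h (3429 and 3133) and at 4 d (4976 and 4309), where it overlapped with 6 d.

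Lats2, Amotl1 and Timp2 also rose. Lats2 and Amotl1 are both parts of the Hippo pathway, which restrains cell growth through a kinase chain. Lats2, the kinase, read 471.9 and 377.8 at 2 d and 1499 and 1351 at 6 d (1.75 ± 0.21, adjusted p = 0.0453). Amotl1, a scaffold that binds the target of that kinase, read 1382 and 1326 at 2 d and 2914 and 2976 at 6 d (1.12 ± 0.12, adjusted p = 0.0386). Timp2, an inhibitor of matrix metalloproteases, read 453.1 and 425.6 at 2 d against 1358 and 1355 at 6 d (1.63 ± 0.16, adjusted p = 0.0207). The 10 h and 4 d arrays of these genes lay with or near the 6 d arrays. Both 6 d arrays lay above both 2 d arrays in 24.4% of all 12900 genes and below them in 22.8%, so groups that do not overlap are common here.

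Cenpf, a kinetochore protein of dividing cells, differed in shape from the rest. It read below the floor on all 6 arrays of 10 h, 2 d and 4 d and 827.7 and 955.1 at 6 d, at least 3-fold higher than at 2 d (log2 at least 1.58 ± 0.14, adjusted p = 0.0207). Cenpf was tested only because both 6 d arrays exceeded the floor. The floor left no spread at 10 h, 2 d and 4 d, so its SE and p cannot be taken as support. The remaining 5 that rose were Acoxl, an acyl-CoA oxidase relative, at 1.59, Fam91a1, of trafficking from endosomes to the Golgi, at 1.38, Colec12, a scavenger receptor, at 1.29, Kpna4, an importin of nuclear transport, at 1.28, and Ncoa1, a coactivator of nuclear receptors, at 1.11. Other probe sets gave 0.59 for Acoxl, 0.55 for Fam91a1 and 0.77 for Colec12. Fut9, a fucosyltransferase and the gene that fell, read 675.7 and 681.4 at 2 d and 331.7 and 256.1 at 6 d (-1.11 ± 0.13, adjusted p = 0.0453), with every 10 h and 4 d array below the floor.

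**Figure D2:**
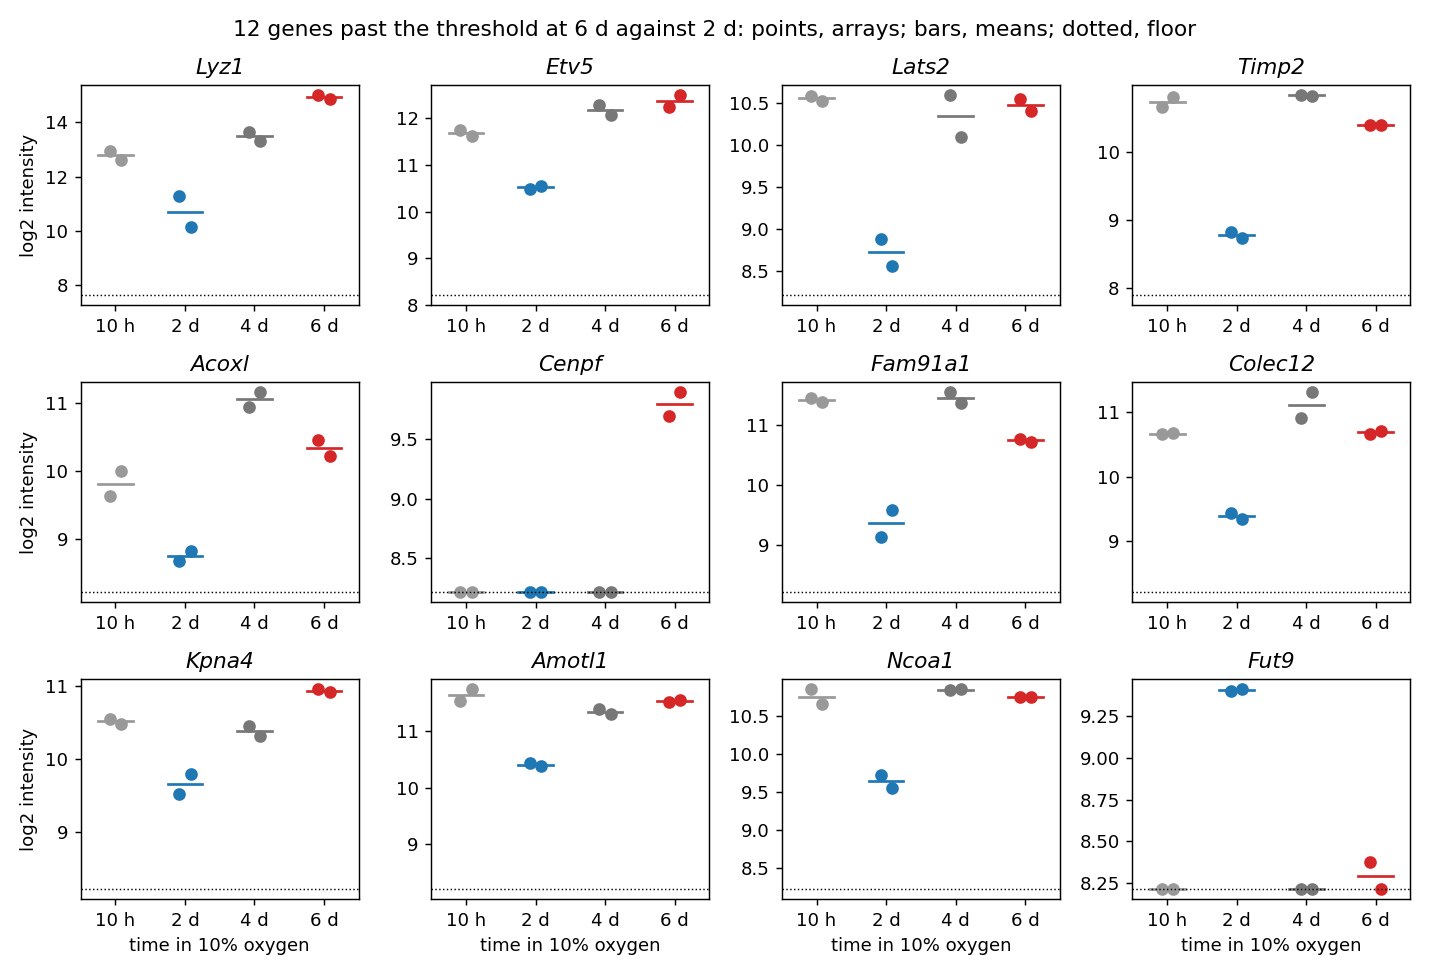
Log2 intensity on each array (points) and mean (bars) of the 12 genes that passed, against the time in 10% oxygen; the dotted line is the floor. In 10 of the 11 genes that rose both 2 d arrays are the lowest of the 8, and for Cenpf only the 6 d arrays stand above the floor.

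A further 13 genes had a probe set that passed although it was not their representative one, and they were named after their values were seen. The largest were Slc39a8, a zinc and manganese transporter (2 d at the floor, log2 at least 2.27 ± 0.27), Ppp1r14c, an inhibitor of protein phosphatase 1 (2 d at the floor, at least 2.12 ± 0.23), Mbnl2, a splicing regulator (1.86 ± 0.12, adjusted p = 0.0105), and Cpm, a surface carboxypeptidase (1.77 ± 0.14). Sftpa1, surfactant protein A, read 2255 and 2700 at 2 d and 7447 and 6179 at 6 d on the probe set that passed (1.46 ± 0.15, adjusted p = 0.0344), and 0.50 and 0.39 on its others. Probe sets of Cald1, Fhl1, Ccny, Trir and Reep3 passed at 1.11 to 1.49, but the representative ones gave 0.28 for Cald1, -0.04 for Fhl1, 0.01 for Ccny, 0.11 for Trir and 0.57 for Reep3. For Slc39a8 the representative probe set gave 0.34. Downward were Mtm1, a phosphoinositide phosphatase (-2.17 ± 0.23), Jarid2, a partner of Polycomb (-1.78 ± 0.20), both on probe sets with shared probes, and Fam126a (at least -1.41, 6 d at the floor). Their representative probe sets gave 0.46 for Mtm1 (-1.65 and -0.36 on its others), -0.36 for Jarid2 and -0.16 for Fam126a. The passing probe set of Fam126a was tested only because both 2 d arrays exceeded the floor, which left no spread at the other times.

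In most probe sets that passed, the 2 d arrays stood apart from the other 3 times. In 21 of the 22 that passed as higher, both 2 d arrays lay below all 6 arrays of 10 h, 4 d and 6 d, and in 7 of the 8 that passed as lower both lay above them. Only 5 of the 22 had both 6 d arrays above all others. Of 1094 genes with unadjusted p under 0.05 that read higher, 85.6% had the 2 d mean as the lowest of the 4 times, and of 861 that read lower, 92.7% had it as the highest. The 2 d arrays are also those with the raised control ratios given above. Those of 10 h and 4 d are of other deposit runs, so their place beside 2 d and 6 d cannot be told apart from that split.

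The probe sets of a gene often disagreed. Of the 25 genes with a probe set that passed, 20 had another tested probe set: in 11 all the others pointed the same way, in 8 at least 1 had an unadjusted p under 0.05 that way, and in 9 at least 1 pointed the other way. Over all 5021 genes with 2 or more tested probe sets, all pointed one way in 42.3%. Further probe sets also read higher for Cpm (1.42), Ppp1r14c (1.43 and 0.80) and Mbnl2 (2.02), whose other 5 gave 0 to 0.96 (0.46 on the representative one). Timp2 was the gene with another probe set at an unadjusted p under 0.05 the other way (-0.47 ± 0.13), and the others of Lats2 (-0.31 and 0.13), Ncoa1 (-0.31) and Kpna4 (-0.19) did not repeat the rise. Over the whole arrays, both probe sets pointed one way in 1665 of 3202 genes with a pair (52.0%), against 53.9% for 4 d minus 10 h, and in 366 of 626 pairs of bright probe sets, both above the 75th percentile of level (58.5%). Signs with no relation would agree about as often as not, which is near the share over all pairs. Among 286 genes with several probe sets at an unadjusted p under 0.05, those of 219 (76.6%) all pointed one way. Across types, Pearson's r of the log2 differences was 0.164 over 1271 genes on both A and B, 0.107 on A and C and 0.092 on B and C; these are across genes, which are not replicates.

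**Figure D3:**
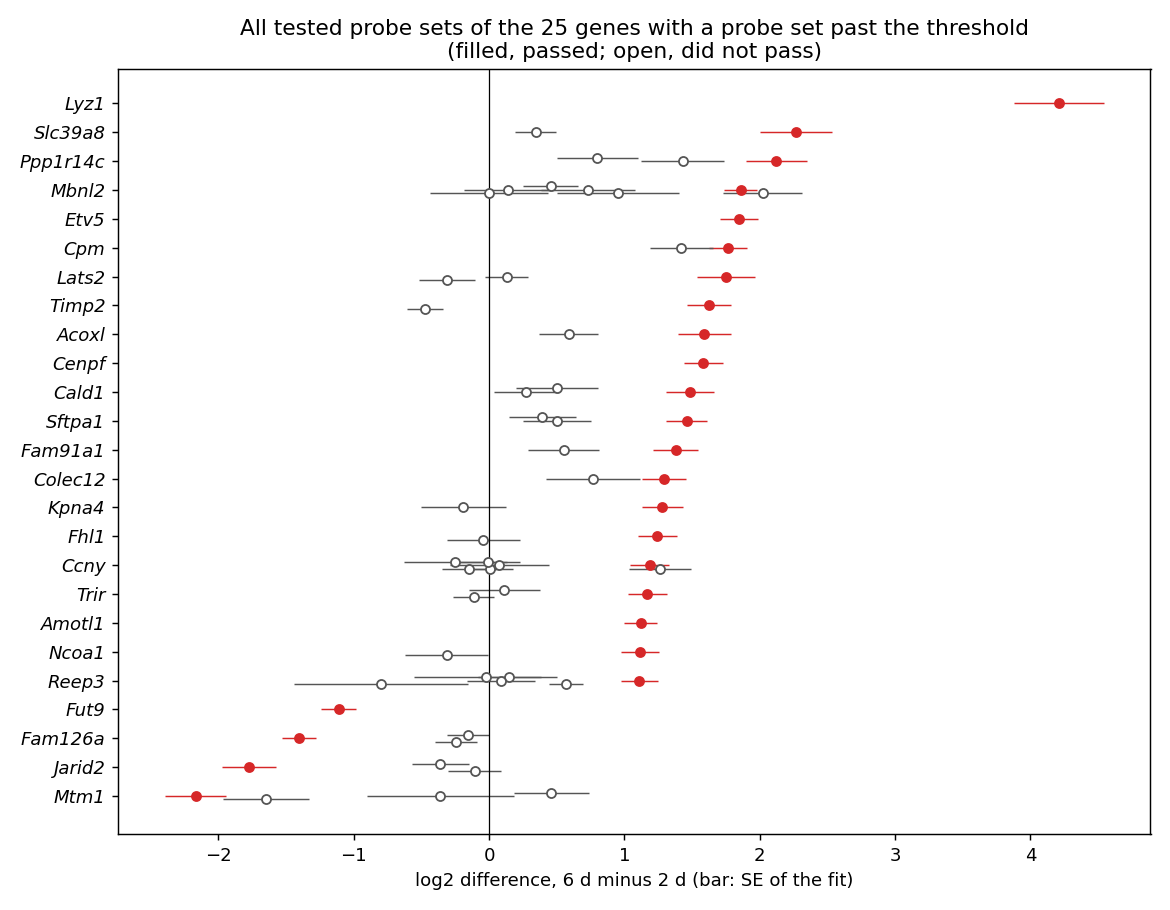
Log2 difference, 6 d minus 2 d, with the SE of the fit, for every tested probe set of the 25 genes with one that passed (filled, passed; open, did not pass). The open points of Cpm and Mbnl2 at 1.42 and 2.02 lie near the filled ones, while those of Timp2 (-0.47), Ncoa1 (-0.31) and Kpna4 (-0.19) lie on the other side of 0.

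Gene lists are described next by their counts, beside the share of all 12900 genes with an unadjusted p under 0.05: 8.48% higher and 6.67% lower, with a median log2 difference of 0. An unadjusted p is no call, and except where stated no member passed the adjusted threshold. Genes of alveolar type 2 cells stood higher at 6 d. Of 30 tested, 14 (46.7%) had an unadjusted p under 0.05 upward and 1 downward, the median difference was 0.49, and 2 passed, Lyz1 and Etv5. Egfl6, a secreted matrix protein, read 14500 and 18500 at 2 d and 44040 and 38980 at 6 d (1.34 ± 0.22, adjusted p = 0.0677). Complement Hc read 2418 and 2493 against 5759 and 4880 (1.11 ± 0.19, adjusted p = 0.0700), and Sftpb, the surfactant protein that spreads the film, 9814 and 9349 against 15040 and 16070 (0.70 ± 0.20, adjusted p = 0.171). For each of these 3 both 6 d arrays stood above both 2 d arrays, as in 24.4% of all genes.

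The level of the type 2 genes was highest at 6 d. In 12 of its 14 upward members the 6 d mean was the highest of the 4 times, against 44.7% of all upward genes. The 3 of them with further probe sets all had those pointing the same way, against 49.9% of all such genes. The list medians per sample, as deviations from each gene's mean, were -0.19 and -0.22 at 2 d, -0.02 and 0.14 at 4 d and 0.32 and 0.32 at 6 d. Of the 30 tested, 26 read higher and 4 lower at 6 d. The downward member at an unadjusted p under 0.05 was Sftpc, the surfactant protein made only by type 2 cells. It read 36690 and 42810 at 2 d and 21890 and 10010 at 6 d (-1.42 ± 0.53, adjusted p = 0.265), after 3316 and 10410 at 10 h. At 4 d Sftpc read 13210 and 10120. Both Sftpc and Sftpb, which read higher at 6 d, have bright probe sets on the A type. The part of brightness in either difference was not tested. Of 19 type 1 genes, 4 were upward and 1 downward, with a median of 0.23. Col4a4, a basement membrane collagen (0.64 ± 0.13, adjusted p = 0.093), and Cldn18, a tight junction protein (0.93 ± 0.22), read higher. Krt7, a keratin, was the downward member (-0.64 ± 0.24, adjusted p = 0.263), and Ager, the marker of the cell type, differed by -0.35 ± 0.33 and Hopx, a homeodomain protein, by -0.60 ± 0.33; Krt7 and Hopx were named after their values were seen. Club cell genes had 4 of 19 upward and 1 downward, with Cyp2f2, their cytochrome P450, at 3212 and 3418 against 9599 and 9338 (1.51 ± 0.27, adjusted p = 0.0738), and Scgb1a1 at -0.68 ± 0.52.

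Interferon-response genes stood higher at 6 d than at 2 d, and the list medians of the 10 h samples, of another deposit run, were higher still. Of 43 tested, 15 (34.9%) were upward at an unadjusted p under 0.05, 0 downward, and the median difference was 0.31. Promoters of this list are shown because many hold the interferon-stimulated response element, the motif bound by the factors that interferons activate. Its letters (GAAA, any 2 bases, GAAA), searched on both strands of the 300 bases from 250 before to 50 after the gene start (RefSeq, GRCm38.p6), were found for 17 of the 35 tested members with a promoter in the table and for 8 of the 11 of these with an unadjusted p under 0.05. Of 27025 genes with such a promoter, 3.99% held it. The capitals mark the matches, which appear here as TTTC, 2 bases and TTTC because the other strand holds the motif:
Ifit1 (chr19:34640639-34640938, plus strand): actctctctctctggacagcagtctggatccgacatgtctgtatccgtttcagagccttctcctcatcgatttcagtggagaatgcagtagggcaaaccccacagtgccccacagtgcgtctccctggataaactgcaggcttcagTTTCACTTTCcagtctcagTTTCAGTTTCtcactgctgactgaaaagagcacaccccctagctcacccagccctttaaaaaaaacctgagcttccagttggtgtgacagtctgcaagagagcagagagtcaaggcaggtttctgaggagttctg
Ifit3 (chr19:34583279-34583578, plus strand): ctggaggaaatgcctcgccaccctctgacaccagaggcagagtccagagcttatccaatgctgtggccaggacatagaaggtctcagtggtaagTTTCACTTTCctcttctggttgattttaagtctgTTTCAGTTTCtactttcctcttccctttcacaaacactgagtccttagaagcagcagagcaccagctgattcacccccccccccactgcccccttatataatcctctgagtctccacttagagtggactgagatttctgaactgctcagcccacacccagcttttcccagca
Gbp7 (chr3:142530086-142530385, plus strand): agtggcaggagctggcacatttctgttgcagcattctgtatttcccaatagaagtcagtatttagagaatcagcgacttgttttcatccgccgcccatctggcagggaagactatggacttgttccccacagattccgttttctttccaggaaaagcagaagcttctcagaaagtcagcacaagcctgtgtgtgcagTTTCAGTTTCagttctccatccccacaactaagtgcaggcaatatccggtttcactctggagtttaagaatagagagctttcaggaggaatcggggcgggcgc
A match of letters is a description of the window and shows no binding. Promoters of sterol synthesis, smooth muscle and clock genes were searched too, each list for a motif of its own. Those motifs were found for 1 of 14, 2 of 24 and 6 of 23 members, against 1.44%, 1.81% and 8.09% of all genes.

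Ifit1, Ifit3 and Gbp7, and others of the interferon list, had their lowest levels at 2 d. Ifit1, an RNA-binding antiviral protein, read 146.6 and 255.0 at 2 d and 1003 and 686.4 at 6 d (1.75 ± 0.27, adjusted p = 0.0597), after 1403 and 1168 at 10 h and 307.9 and 317.2 at 4 d. Ifit3, of the same family, differed by 1.08 ± 0.36 (adjusted p = 0.211). Oas2, an enzyme that makes 2'-5' oligoadenylates, read 797.1 and 919.2 against 1820 and 1724 (1.05 ± 0.14, adjusted p = 0.0512), and its relative Oasl2 1609 and 1200 against 4044 and 3735 (1.48 ± 0.20, adjusted p = 0.0512). Gbp7, a guanylate-binding GTPase, read 1723 and 1472 against 2954 and 2938 (0.89 ± 0.16, adjusted p = 0.0738), with -0.14 ± 0.30 on its other probe set. In all 15 upward members the 2 d mean was the lowest of the 4, against 85.6% of all upward genes, and in 12 the 10 h mean stood above the 6 d mean, against 41.6%. The separate comparison of 4 d minus 10 h, which shares no array with 6 d minus 2 d, had a list median of -0.32.

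Of 40 genes of mitosis, 7 were upward, 2 downward, and the median difference was 0.33. Cenpf was the one that passed, with the limit set by the floor given above. In 6 of the 7 the 6 d mean was the highest of the 4 times, against 44.7% of all upward genes. The list medians per sample were -0.10 and -0.08 at 2 d and 0.29 and 0.33 at 6 d. At 4 d they were 0.385 in 1a, above both 6 d samples, and -0.164 in 1b. Hmgb2, a chromatin protein of dividing cells, differed by 0.66 ± 0.23 (adjusted p = 0.227, other probe set 0.26), and Ccnb2, the cyclin of entry into mitosis, read 1346 and 1273 against 1804 and 1806 (0.46 ± 0.23, adjusted p = 0.417). Mki67, a proliferation antigen, read 400.2 and 404.1 against 744.2 and 810.8, a difference of 0.95 ± 0.57 (adjusted p = 0.517) with 0.06 on its other probe set. Incenp (-0.64 ± 0.18) and Plk1 (-0.70 ± 0.26), both regulators of chromosome segregation, read lower, but the other probe sets of Incenp gave -0.31, 0.18 and 0.58 and those of Plk1 -0.06 and 0.12. The 31 genes of DNA replication had 1 upward and 2 downward and a median of -0.08; the difference between both lists was not tested.

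Of the macrophage genes, 8 of 33 (24.2%) were upward and 0 downward, with a median of 0.23; the member that passed was Lyz1, which type 2 cells also make. Apoe, a lipid carrier, read 4691 and 4550 at 2 d and 9356 and 8487 at 6 d (0.95 ± 0.15, adjusted p = 0.0637) and 1.05 ± 0.41 on its other probe set. Csf2rb, the shared receptor chain of GM-CSF and interleukins, differed by 0.61 ± 0.18 (other probe set 0). The summed intensity of the list was 102883 and 97972 at 2 d and 156877 and 138125 at 6 d, and most of that gap was Lyz1. Without Lyz1 it was 100394 and 96832 at 2 d, 123844 and 108677 at 6 d and 90792 to 106715 at 10 h and 4 d. The list median was 0.15 without the 6 d sample 1a. Of the genes of alternative activation, Retnla, a resistin-like protein raised in hypoxic lung, read 2344 and 3219 against 1765 and 1660 (-0.68 ± 0.27, adjusted p = 0.303).

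**Figure D4:**
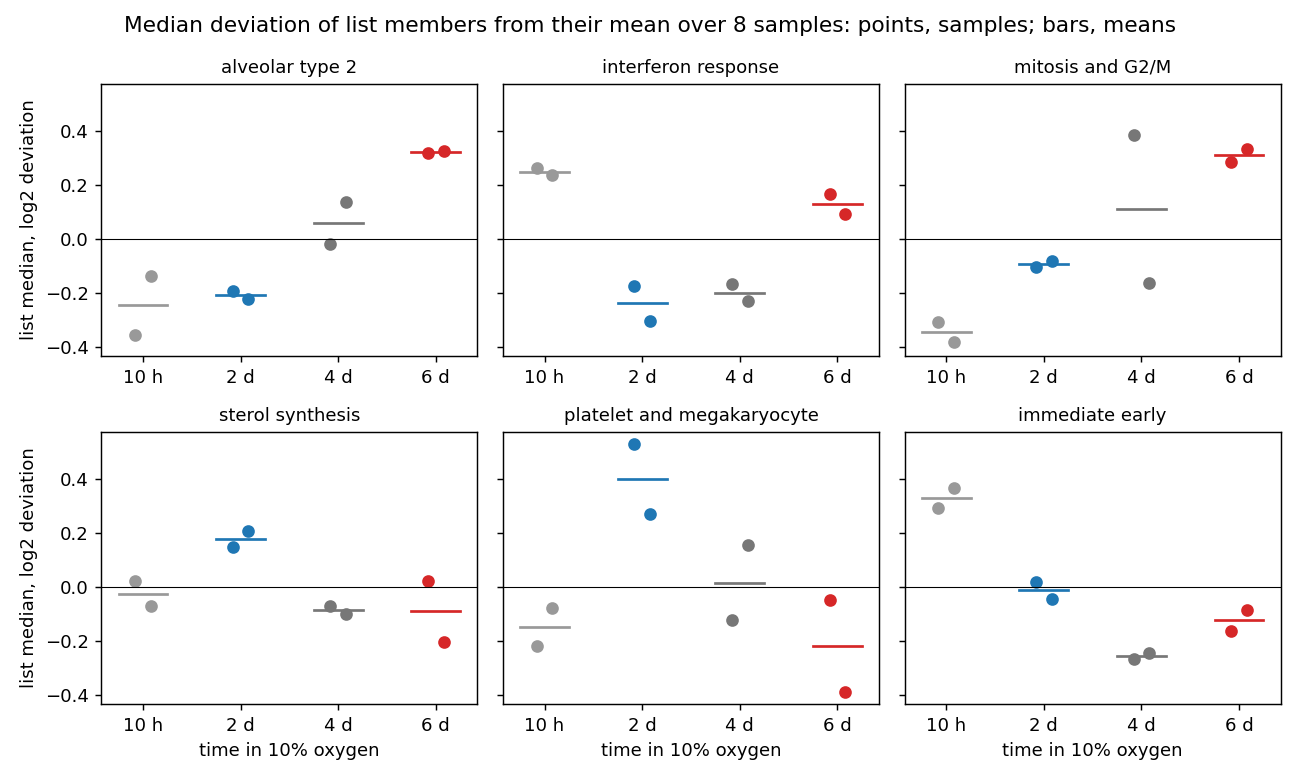
Median over the tested members of 6 gene lists of the log2 deviation from each gene's mean over 8 samples, against the time in 10% oxygen (points, samples; bars, means). Alveolar type 2 medians are 0.32 in both 6 d samples against -0.19 and -0.22 at 2 d, and interferon medians are highest at 10 h (0.26 and 0.24).

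The named subunits of soluble guanylate cyclase stood higher at 6 d, without passing the threshold. Gucy1a1, the alpha subunit of soluble guanylate cyclase, read 808.7 and 1430 at 2 d and 3876 and 3401 at 6 d (1.75 ± 0.25, adjusted p = 0.0586). Gucy1b1, the beta subunit, read 3785 and 3612 against 6569 and 6804 (0.85 ± 0.14, adjusted p = 0.0677), and its other probe set 495.8 and 703.3 against 1385 and 1326 (1.20 ± 0.22). The 4 d arrays of both subunits stood near the 6 d level, Gucy1a1 at 4036 and 3469. Nos3, the endothelial synthase, was under the floor on both 2 d arrays and read 455.7 and 480.9 at 6 d (at least 0.98 ± 0.30, adjusted p = 0.184). Over the whole list of endothelin, nitric oxide and prostacyclin 4 of 31 were upward, 1 downward and the median was -0.01. Edn1, the precursor of endothelin 1, read 1878 and 1987 against 1720 and 1573 (-0.23 ± 0.31) and 0.35 ± 0.20 on its other probe set.

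Smooth muscle genes were divided. Of 30, 6 were downward, 3 upward and the median was 0. Acta2, smooth muscle actin, read 11140 and 11490 at 2 d and 5043 and 4564 at 6 d (-1.24 ± 0.21, adjusted p = 0.0677), without overlap, and -0.04 ± 0.43 on a dim second probe set. Des, desmin (-0.85 ± 0.20, adjusted p = 0.121), and Actg2, enteric smooth muscle actin (-0.69 ± 0.15, adjusted p = 0.110), read lower too. Actb, the actin of all cells, differed as much, at 13940 and 13010 against 6054 and 6897 (-1.06 ± 0.21, adjusted p = 0.088, other probe set -0.79), and its control ratio moved with it. The probe sets of Actg2 and Actb are of the kind with shared probes, so their differences may not be separate from those of other actins. Rgs5, a pericyte marker, was under the floor at 2 d, 10 h and 4 d and read 617.4 and 496.5 at 6 d (at least 0.90 ± 0.14, adjusted p = 0.0637), with 0.17 on its other probe set. As for Cenpf, only the 6 d arrays brought this probe set into the test, and the floor left no spread at the other times.

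Matrix genes were mixed. Timp1, an inhibitor of matrix proteases, read 5202 and 5779 at 2 d and 2064 and 2427 at 6 d (-1.29 ± 0.22, adjusted p = 0.0677), and Mmp3, stromelysin, 1831 and 1922 against 796.6 and 810.5 (-1.22 ± 0.21, adjusted p = 0.0666), while Timp2 rose as given above. Eln, elastin of artery walls, read 26100 and 33880 against 21340 and 13910 (-0.79 ± 0.32, adjusted p = 0.309) on one probe set and 1235 and 1398 against 2669 and 2534 (0.99 ± 0.58) on the other, so its direction depended on the probe set. Col4a1, of basement membranes, differed by -0.72 ± 0.25 (adjusted p = 0.232). The differences of Col1a1 (-0.23 ± 0.30, other probe set -0.32), Col3a1 (0.03 ± 0.27, others 0.49 and -0.09), Fn1, fibronectin (-0.04 ± 0.19), and Tnc, tenascin C (-0.56 ± 0.45, other probe set -0.18) had adjusted p of 0.648 to 1. Of 30 collagen genes 2 were upward and 3 downward.

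No named gene of endothelial growth or hypoxia signalling passed. Vegfa, the endothelial growth factor, read 1387 and 1137 against 1631 and 1672 (0.39 ± 0.35, other probe sets 0.09 and 0.94), its receptor Kdr 3507 and 3381 against 2476 and 1830 (-0.69 ± 0.29, adjusted p = 0.311), and Angpt2, a vessel-destabilising ligand, differed by 0.17 ± 0.25. Bmpr2, the receptor mutated in heritable pulmonary hypertension, differed by 0.07 ± 0.32, with -0.30 to 0.19 on its 4 other probe sets. Hmox1, heme oxygenase, differed by -0.11 ± 0.15. Of 43 targets of hypoxia-inducible factor and glycolysis genes 0 were upward and 1 downward, with a median of 0.04.

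Platelet genes stood lower at 6 d. Of 11 tested, 6 (54.5%) were downward at an unadjusted p under 0.05, 1 was upward, and the median difference was -0.79. Itga2b, the platelet fibrinogen receptor chain, read 1984 and 1191 at 2 d and 296.0 and 270.9 at 6 d (-2.44 ± 0.41, adjusted p = 0.0677). It read 1445 and 1023 at 10 h and 728.9 and 1365 at 4 d, so that 6 d was the low point of this gene. Its partner Itgb3 read 1767 and 1047 against 772.7 and 466.6 (-1.18 ± 0.35), Gp1bb, of the von Willebrand factor receptor, 476.5 and 430.3 against values under the floor (at least -0.93 ± 0.25), and Ppbp, a platelet chemokine, 3696 and 3858 against 2468 and 2514 (-0.60 ± 0.14, adjusted p = 0.129). The summed intensity of the list was 20636 and 17572 at 2 d, 13923 and 12690 at 6 d and 14090 to 16748 at 10 h and 4 d. In all 6 downward members the 2 d mean was the highest of the 4 times, against 92.7% of all downward genes. In 4 of them the 6 d mean was the lowest, against 40.1%. Red cell genes had 5 of 28 downward and 0 upward, with Slc4a1, the anion exchanger, at 1239 and 910.2 against 400.0 and 338.8 (-1.53 ± 0.42, adjusted p = 0.152, other probe set -0.18), Slc25a37, the mitochondrial iron importer, at -0.89 ± 0.17 (other probe sets 0.14 and 0.94), and Hba-a1, an alpha globin, at 29410 and 42020 against 31250 and 15090 (-0.69 ± 0.49), where the groups overlapped. Blood left in the lung was not measured apart from these genes, and its part in their differences was not tested.

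Sterol synthesis read lower at 6 d. Of 18 tested genes 7 (38.9%) were downward, 0 upward, and the median was -0.21, with -0.38 and -0.41 without sample 1a of 2 d or of 6 d and -0.36 with a lower floor. Idi1, an isomerase early in the pathway, read 1982 and 2198 at 2 d and 1111 and 933.4 at 6 d (-1.03 ± 0.19, adjusted p = 0.0754, other probe set 0). Fdps (-0.87 ± 0.26, other probe sets -0.71 and -0.20) and Fdft1 (-0.75 ± 0.20), which build farnesyl diphosphate and squalene, and Lss, which closes the sterol ring (at least -1.26 ± 0.34, 6 d under the floor, other probe sets 0, 0 and -0.32), followed in p. In all 7 the 2 d mean was the highest of the 4 times, against 92.7% of all downward genes. Fatty acid genes had 5 of 30 upward and 0 downward: Cpt1a, which admits fatty acids to mitochondria, read 2652 and 2395 against 5346 and 4557 (0.97 ± 0.16, adjusted p = 0.0666), and Lpin1, a phosphatidate phosphatase, was under the floor at 2 d and read 860.6 and 935.8 at 6 d (at least 1.60 ± 0.27), with 0.28 and 0 on its other probe sets. Respiratory chain genes had 6 of 55 downward, 1 upward and a median of -0.12 (-0.24 without the 2 d sample 1b), led by Cox6a1, a cytochrome oxidase subunit (-0.85 ± 0.19, adjusted p = 0.106, other probe set -0.55).

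Genes that answer to hormones, the time of day and acute stress were divided. Of 27 immediate early genes 7 (25.9%) were downward and 0 upward, among them Klf2, a flow-responsive factor of endothelium, at 1682 and 1300 against 807.7 and 560.7 (-1.14 ± 0.29, adjusted p = 0.135), and Maff, a small Maf factor (-0.65 ± 0.15). Clock genes had 4 of 27 upward and 2 downward. Nr1d2, a repressor of the clock, read 2458 and 2954 at 2 d and 6449 and 6771 at 6 d (1.29 ± 0.18, adjusted p = 0.0586, other probe set 0.70), below its 10 h and 4 d arrays (8887 to 11610), whereas Usp2 (-1.36 ± 0.38, other probe set 0.12) and Cry1 (-0.67 ± 0.19) read lower. The hour at which lungs were taken is not in the labels used here, and its part was not tested. Of 32 glucocorticoid-response genes 6 were upward and 2 downward, with Zbtb16, a zinc finger factor, at 3165 and 2636 against 7571 and 5966 (1.22 ± 0.18, adjusted p = 0.0586, other probe set 0.90), Klf9, a Krüppel-like factor, at 0.79 ± 0.16 with further probe sets at 0.54 and at least 1.16, and Cebpd at -0.66 ± 0.17.

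**Figure D5:**
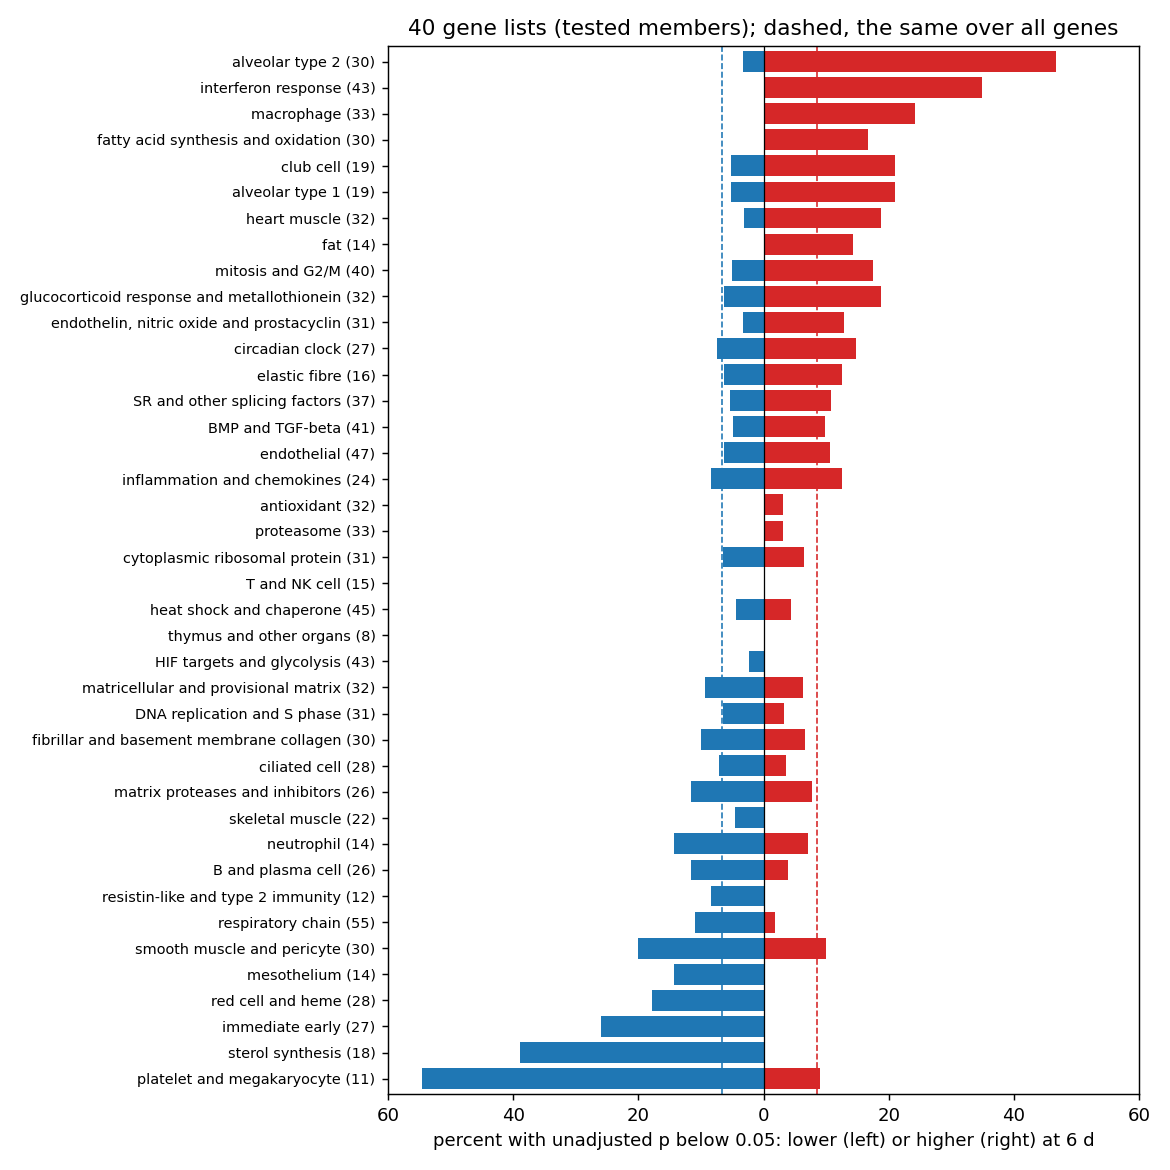
Percent of tested members with an unadjusted p under 0.05 that read higher (right, red) or lower (left, blue) at 6 d than at 2 d, for 40 gene lists with their tested members in brackets; the dashed lines mark 8.48% and 6.67%, the shares of all genes. Alveolar type 2 (46.7% higher) and platelet genes (54.5% lower) stand at either end.

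Only Fut9 fell past the threshold among representative probe sets, so the genes of next smallest p downward are named as not passing. They were Gm21818 (at least -0.98, adjusted p = 0.0512) and Tubb6, a tubulin (-1.07), both on probe sets with shared probes, Sfi1, of centrin fibres (-1.06), Alg8, a glucosyltransferase of N-glycan assembly (-0.99), AU041480 (at least -0.73, other probe sets 0 and 0), Focad (-0.97), Polr2l, a shared subunit of RNA polymerases (-0.76), and Mmp3 and Timp1, given above. Adjusted p of these 9 lay between 0.0512 and 0.0677. AU041480 was tested only because both 2 d arrays exceeded the floor, which left no spread at the other times. Markers of other tissues differed by list. Heart muscle genes had 6 of 32 upward (18.75%, against 8.48% of all genes) and 1 downward, with a median of 0.21. Summed intensities of that list were 29240 and 27636 at 2 d and 34636 and 32080 at 6 d. Skeletal muscle genes had 0 of 22 upward and 1 downward (median -0.05). Mesothelium genes had 0 of 14 upward and 2 downward (median -0.18), and fat genes 2 of 14 upward and 0 downward (median 0.10). For the heart muscle list the 10 h and 4 d sums, 33781 to 42205, lay beside or above those of 6 d.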

How the data were processed

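The authors deposited 1 table for each array type, which holds an unlogged intensity for every probe set. How the probes were summarised, and with which software, is not given in the sources used here. Deposited values entered without rescaling, since their trimmed means (2% left out at each end) agreed within 5%. Samples were grouped by title. The floor was the 40th percentile of an array type, and probe sets above it on at least 2 of the 8 arrays of 10 h, 2 d, 4 d and 6 d were tested: 8320 on A, 8439 on B and 8520 on C. For each type limma 3.58.1 (R 4.3.3) fitted 4 group means (4 residual degrees of freedom, eBayes with a trend), and the contrast was 6 d minus 2 d, two-sided, with Benjamini-Hochberg adjustment over the 3 types together. The procedure was tested on simulated data.

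Gene symbols came from the platform annotation and can be old. A gene was represented by a plain probe set before one with shared probes, then by the brightest. Named genes were the 15 largest rises and falls past the threshold or, with fewer than 5, the 10 of smallest p, up to 4 members of smallest p of each list spoken of with any that passed, and genes chosen for the disease model. The members and the 40 gene lists were chosen with earlier results of these data known. Of those chosen, Gapdh had no tested probe set. 1 column, titled Norm 1a of type A but placed in the B table, was not used. The number of arrays limits the precision.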

Additional observations from a re-analysis of the deposited data

How the results depend on the processing

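The 30 probe sets that passed kept their direction under each alternative in which they were tested. They were chosen for small p on these same arrays, so a kept direction was close to fixed in advance. With the 2 d and 6 d arrays alone, 2 of the 30 stayed past the adjusted threshold. The number of all probe sets past it moved widely. With median scaling 48 were higher and 12 lower (31 genes by representative probe set), and with quantile normalization 27 and 11 (17 genes). Without a filter on dim probe sets 41 were higher and 66 lower (47 genes), with a floor exceeded on 5 of 8 arrays 104 and 24 (65 genes), and with the floor at the 20th percentile 16 and 3 (7 genes). Without the trend 8 and 3 passed (4 genes), with the 2 d and 6 d arrays alone 1 and 3 (2 genes), with Norm as well 8 and 8 (6 genes), and with adjustment within each array type 128 and 81 (98 genes). Leaving out 1 sample at a time gave 0 to 15 higher, 0 to 7 lower and 0 to 11 genes. The cause of these shifts was not tested. The deviations of same-lettered samples at 2 d and 6 d had r = -0.08 over all types. This r is across probe sets, which are not replicates, so it cannot decide whether the letters pair the samples. The replicate block left 4 higher and 1 lower (2 genes), and a crossed pairing, chosen after seeing the data, 4 and 0 (2 genes).

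Among the 116 genes followed, direction turned only in genes that had not passed: Col3a1 gave -0.035 with median scaling and -0.058 to 0.117 with a sample left out, Ager 0.048 with quantile normalization, Bmpr2 -0.130 to 0.272 and Fn1 -0.249 to 0.179 with a sample left out. The medians of 17 lists gave 340 values over the alternatives. Of these values, 54 moved by more than the spread between samples and 9 changed sign. Sign changed for endothelin and nitric oxide (-0.07 to 0.08), glucocorticoid (-0.06 to 0.08), protease (-0.06 to 0.07) and smooth muscle genes (-0.15 to 0.02). The others ranged from 0.41 to 0.59 for type 2, 0.16 to 0.28 for type 1, 0.09 to 0.24 for club cell, 0.22 to 0.39 for interferon, 0.26 to 0.38 for mitosis, 0.15 to 0.33 for macrophage, 0.06 to 0.17 for fatty acid, 0.01 to 0.07 for clock, -0.94 to -0.61 for platelet, -0.41 to -0.16 for sterol, -0.28 to -0.14 for immediate early, -0.27 to -0.14 for red cell and -0.24 to -0.09 for respiratory chain genes. Signal near the floor limits dim genes to bounds.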
